A study of Mus musculus with 12 samples.

Results

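Of 9 contractile smooth muscle genes that could be tested, 8 were higher after Klf4 knockdown in airway smooth muscle cells (SMCs) and none was lower, whereas in lung PDGFR-β+ cells 5 were higher and 2 were lower. Among all genes tested, 15.6% were higher and 12.9% lower in SMCs, and 25.3% were higher and 15.3% lower in PDGFR-β+ cells. The 10 genes examined were Acta2, Tagln, Myh11, Cnn1, Lmod1, Smtn, Actg2, Mylk, Myocd and Srf, taken by symbol from 52636 gene identifiers. Every one was found once in both expression tables. The tenth, Myocd, lay under the level needed for a test. The comparison addresses which contractile transcripts are released when Klf4 is reduced.

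Bulk RNA was sequenced from 12 mouse libraries in 4 groups of 3: SMCs given scrambled RNA (Scr) or siRNA against Klf4 (siKlf4), and PDGFR-β+ cells given either one. The SMCs were a commercial culture of C57BL/6 trachea from the supplier CellBiologics, which the titles call airway SMCs. They are labelled with genotype WT (Scr) or Klf4 KD (siKlf4) and carry no age. The PDGFR-β+ cells came from lungs of mice aged 12 weeks, are labelled C57BL/6 with the same genotype terms, and per the study's methods were Zs+ cells sorted from tamoxifen-induced Pdgfrb-CreERT2, ROSA26R(Zs/+) animals and then passaged. Cells marked this way are a mixture of lung mesenchymal types, and both populations had been grown in culture before transfection. Klf4 was lowered with siRNA and not deleted, so some Klf4 RNA was left. In such bulk samples, fewer cells of a type and less RNA per cell cannot be told apart. Of each SMC group, 1 library carries no replicate number and the others are replicates 2 and 3. SMC values are given in that order, and those of PDGFR-β+ libraries in the order of replicates 1, 2 and 3.

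Contractile smooth muscle cells shorten when calcium and calmodulin activate myosin light chain kinase, which phosphorylates myosin and lets it pull on actin. Most genes of this apparatus carry CArG boxes, sequences bound by serum response factor (SRF), and myocardin (Myocd) is the coactivator that gives SRF its smooth muscle selectivity. Cultured smooth muscle cells lose much of this program, and KLF4, a zinc finger factor that binds GC-rich and CACCC-type elements, is known to repress it.

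Where RefSeq promoters were at hand, they were read for these elements. A window from 250 bases before to 50 after the start site (GRCm38.p6) was found for 6 of the 10 genes: Acta2, Cnn1, Lmod1, Smtn, Mylk and Srf. Srf held 2 exact CArG boxes, at −82 to −73 and at −62 to −53 from its start. Forms with 1 change were counted only where the outer CC and GG were kept and 1 base of the A and T core was G or C. Acta2 held no exact box and 2 with such a change, at −84 to −75 and at −34 to −25. The windows of Cnn1, Lmod1, Smtn and Mylk held neither of these forms, and changes in the outer bases were not searched. The Mylk and Smtn windows lie wholly inside the annotated genes, and most of the Acta2 window lies inside its gene. Positions and absences refer to the start used for each window and not to other starts of these genes. Among 32851 promoters of this length, 1.63% held an exact CArG box, 9.98% held one that was exact or had 1 such change, and 0.822% held 2 or more. The letters CACCC, read on both strands, were found 5 times in Cnn1, 2 times in Acta2, 1 time each in Smtn, Mylk and Srf, and 0 times in Lmod1, against 57.5% of all promoters with at least 1 copy. These matches describe letters in the window and were not tested for binding. The sequences shown are the Acta2 and Srf windows, for their CArG boxes, and the Cnn1 window, for its CACCC copies. Capitals mark CArG boxes, exact in Srf and with 1 core change in Acta2. The windows are Acta2 chr19:34255324-34255623 (minus strand), Srf chr17:46556113-46556412 (minus strand) and Cnn1 chr9:22099003-22099302 (plus strand), each written 5′ to 3′ on the gene's own strand.
Acta2: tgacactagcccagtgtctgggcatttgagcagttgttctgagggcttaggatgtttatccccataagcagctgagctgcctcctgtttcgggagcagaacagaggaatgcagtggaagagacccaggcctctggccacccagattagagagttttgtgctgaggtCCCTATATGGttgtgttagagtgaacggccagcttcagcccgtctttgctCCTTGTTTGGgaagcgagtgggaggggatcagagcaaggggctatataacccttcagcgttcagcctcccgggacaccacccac
Srf: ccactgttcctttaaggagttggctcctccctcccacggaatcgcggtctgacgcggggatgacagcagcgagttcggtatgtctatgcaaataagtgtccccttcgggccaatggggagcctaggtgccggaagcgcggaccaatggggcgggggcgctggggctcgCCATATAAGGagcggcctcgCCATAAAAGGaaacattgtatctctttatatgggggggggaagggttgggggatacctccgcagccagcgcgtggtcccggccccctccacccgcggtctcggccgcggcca
Cnn1: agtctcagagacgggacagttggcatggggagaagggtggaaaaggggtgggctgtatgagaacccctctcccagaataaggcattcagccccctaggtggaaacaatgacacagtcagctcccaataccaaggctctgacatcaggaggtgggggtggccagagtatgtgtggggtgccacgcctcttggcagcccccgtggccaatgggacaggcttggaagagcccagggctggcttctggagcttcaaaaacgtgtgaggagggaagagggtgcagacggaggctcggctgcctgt

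Klf4 itself was checked first. Its level in SMCs was 89.6, 96.3 and 95.03 TPM (transcript abundance adjusted for transcript length and scaled to a fixed total per library) with Scr and 26.5, 16.3 and 18.8 TPM under siKlf4, leaving 21.9% of the mean (log2 fold change −2.16, SE 0.16, adjusted p = 7.52e-04). In PDGFR-β+ cells it was 144, 146 and 134 TPM under Scr and 12.3, 13.8 and 12.8 TPM under siKlf4, leaving 9.16% (log2 fold change −3.35, SE 0.077, adjusted p = 3.32e-06). The knockdown was therefore deeper in PDGFR-β+ cells, with a difference in log2 fold change of 1.19 (SE 0.19, adjusted p = 6.90e-04). All tests used limma on log2(TPM + 1) over genes averaging 1 TPM or more, with Benjamini-Hochberg adjustment over every gene tested and a threshold of 0.05. With 3 libraries against 3, an exact permutation test of a single gene cannot go below p = 0.1.

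Smooth muscle markers did not sum higher in the cells labelled SMC. The summed level of 6 smooth muscle markers (Acta2, Tagln, Myh11, Cnn1, Des and Lmod1, of which 5 are among the 10 genes) was 1435 to 2219 TPM in Scr SMCs and 5495 to 6338 TPM in Scr PDGFR-β+ cells. Most of each sum was Acta2 and Tagln. Des, the intermediate filament of mature muscle, was at 2.77 TPM in Scr SMCs and 2.08 TPM in Scr PDGFR-β+ cells. It did not overlap but missed the threshold (adjusted p = 0.173). Outside these 6, Ppp1r14a (7.30 and 0.879 TPM), Pgm5 (37.5 and 0.297 TPM) and Mylk were higher in Scr SMCs. Of 24 other contractile apparatus genes tested, 4 were higher in Scr SMCs and 14 lower, against 25.5% and 25.9% of all genes. Fibroblast markers (7 genes) summed to 1741 to 2103 TPM and 1987 to 2365 TPM. Most of each sum was Col1a1 (means 1108 and 1937 TPM). Higher in Scr SMCs without overlap were Dcn (409 and 71.2 TPM), Lum (15.6 and 0.516 TPM), Tcf21 (15.4 and 1.10 TPM) and Pdgfra. Col14a1 and Pi16 overlapped. The fibroblast receptor Pdgfra was at 417 TPM and 169 TPM, and Pdgfrb at 214 TPM and 447 TPM. Of the pericyte markers (8 genes), Higd1b was at 0 in all groups, and the sum was 247 to 254 TPM in Scr SMCs and 470 to 510 TPM in Scr PDGFR-β+ cells. Most of that sum was Pdgfrb, and the other markers went both ways. Higher in Scr SMCs were Notch3 (17.2 and 7.73 TPM), Cox4i2 (8.32 and 1.26 TPM), Kcnj8 (1.85 and 0.0509 TPM) and Abcc9 (1.32 and 0.0383 TPM). Lower there were Cspg4 (5.29 and 26.9 TPM) and Rgs5 (1.23 and 2.27 TPM). Endothelial markers (5 genes) summed to at most 17.2 TPM, led by Kdr, with Tie1 and Cldn5 at 0. Leukocyte markers (5 genes) summed to at most 29.9 TPM, epithelial ones (5 genes) to at most 0.147 TPM, and striated muscle ones (5 genes) to at most 2.83 TPM. Cartilage markers (4 genes) summed to 59.8 to 74.5 TPM in Scr SMCs and 13.8 to 18.0 TPM in Scr PDGFR-β+ cells, with Sox9 leading and Matn1 at 0. Col2a1 had means of 10.5 TPM in Scr SMCs, 16.2 TPM in siKlf4 SMCs and 0.0141 TPM in Scr PDGFR-β+ cells, and Acan lay near 0. With siKlf4, the pericyte sum was 204 to 229 TPM in SMCs and 319 to 417 TPM in PDGFR-β+ cells, in both cell types lower than with Scr and without overlap. Pdgfrb again made up most of it (means 185 and 339 TPM), and the other pericyte markers did not all fall. The fibroblast sum was then 1585 to 1874 TPM in SMCs, which overlapped the Scr range, and 1318 to 1797 TPM in PDGFR-β+ cells, which did not. Col1a1 was most of the latter (mean 1264 TPM). The leukocyte sum in PDGFR-β+ cells was 28.6 to 29.9 TPM with Scr and 18.7 to 22.8 TPM under siKlf4. The endothelial sum in SMCs was 0.733 to 1.62 TPM with Scr and 3.03 to 3.59 TPM under siKlf4, and in PDGFR-β+ cells it was 13.8 to 17.2 TPM and 12.0 to 13.04 TPM. Cartilage markers in PDGFR-β+ cells summed to 19.2 to 22.7 TPM under siKlf4. The part of these other cell types in the results was not tested. Libraries had between 20590 and 21780 genes above 0.

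At baseline, with Scr RNA, 7 of the 9 testable genes were lower in SMCs than in PDGFR-β+ cells, 1 was higher and 1 did not pass the test, against 25.9% lower and 25.5% higher among 13032 genes. The cell types differ in source, in table of origin and, per the study's methods, in growth medium before transfection too. These cannot be told apart. Acta2, smooth muscle α-actin, was the most abundant in both, with a mean of 1373 ± 297 TPM (SD, n = 3) in Scr SMCs, the rank of 73 among all genes, and 4369 ± 347 TPM in Scr PDGFR-β+ cells, the rank of 13. Tagln (SM22α, an actin-binding protein) followed at 425 ± 117 TPM and 1505 ± 136 TPM. Differences of SMCs from PDGFR-β+ cells on the log2 scale were −1.69 for Acta2 (SE 0.14, adjusted p = 2.10e-06) and −1.86 for Tagln (SE 0.17, adjusted p = 3.18e-06). Cnn1, Actg2 and Srf were lower in SMCs by smaller amounts, at −1.10, −0.76 and −0.60. Myh11 (−0.38, adjusted p = 0.0332) and Lmod1 (−0.21, adjusted p = 0.0424) lay near the threshold, and when single libraries were left out 5 of 12 fits for Myh11 and 8 of 12 for Lmod1 missed it. Mylk, myosin light chain kinase, ran the other way. It was at 57.4, 51.5 and 51.5 TPM in Scr SMCs against 10.98, 8.89 and 11.1 TPM in Scr PDGFR-β+ cells, 5.18 times the mean (log2 difference 2.27, SE 0.13, adjusted p = 9.13e-08). Smtn, smoothelin, overlapped between the cell types (log2 difference −0.064, 95% interval −0.27 to 0.14, adjusted p = 0.602).

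In order of mean level, Scr SMCs ran Acta2, Tagln, Smtn, Mylk, Lmod1, Cnn1, Srf, Myh11, Actg2 and Myocd. Scr PDGFR-β+ cells ran Acta2, Tagln, Cnn1, Smtn, Lmod1, Srf, Actg2, Myh11, Mylk and Myocd. Among neighbours in SMCs, the library ranges of Smtn and Mylk overlapped, as did those of Lmod1 and Cnn1. In PDGFR-β+ cells those of Smtn and Lmod1, of Srf and Actg2, and of Actg2 and Myh11 overlapped. Acta2 alone made up 65.3% to 68.3% of the summed level of the 10 genes in Scr SMCs and 70.2% to 71.1% in Scr PDGFR-β+ cells.

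**Figure D1:**
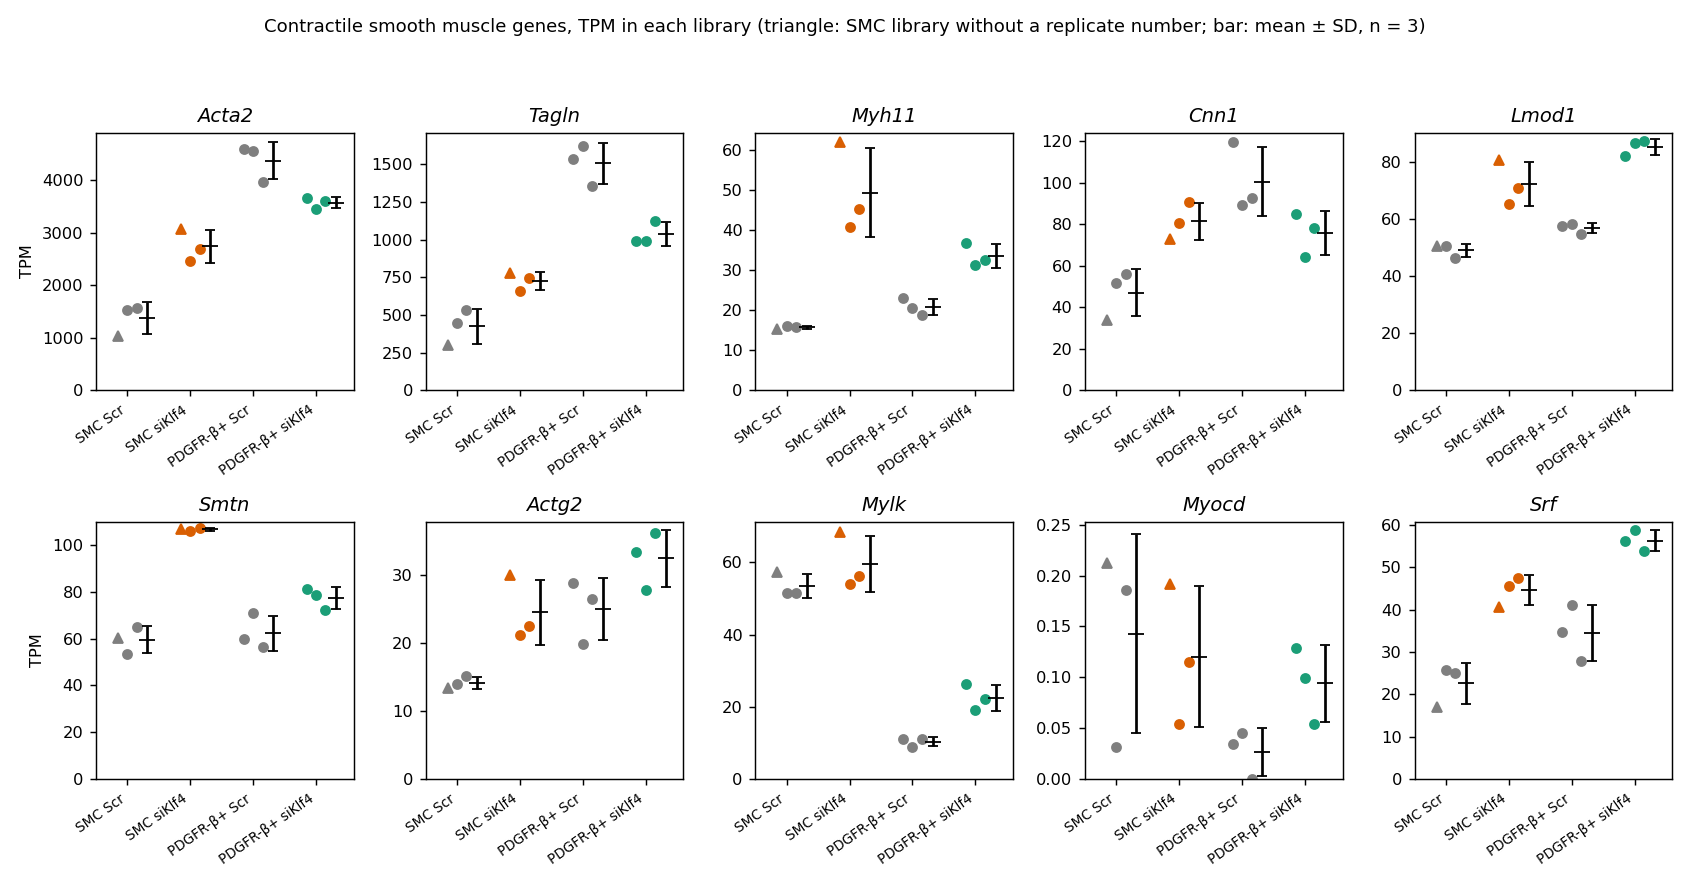
Level of each of the 10 genes in every library, in TPM on a linear axis that starts at 0 (each panel has its own range), for SMCs and PDGFR-β+ cells with Scr RNA (grey) or siKlf4 (orange, green). Points are libraries, triangles the SMC library without a replicate number, bars the mean ± SD. Acta2, Tagln and Cnn1 rise from grey to orange in SMCs and are lower in green than grey in PDGFR-β+ cells, Mylk separates in PDGFR-β+ cells only, and Myocd stays below 0.25 TPM throughout.

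After Klf4 knockdown in SMCs, 8 of 9 genes rose, 0 fell and Mylk did not pass the test. Among all 13709 genes tested in SMCs, 15.6% were higher and 12.9% lower. The median log2 fold change of the 9 genes was 0.81, beside 0.017 over all genes. Their Scr and siKlf4 libraries did not overlap in 8 of 9 cases, against 47.1% of all genes. The summed level of the 10 genes went from 1580, 2227 and 2374 TPM to 4311, 3529 and 3874 TPM.

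In PDGFR-β+ cells, Myh11, Lmod1, Smtn, Mylk and Srf rose, Acta2 and Tagln fell, and Cnn1 and Actg2 did not pass. The shares over 13694 genes were 25.3% higher and 15.3% lower. The median of the 9 genes was 0.37, beside 0.097 over all genes. Again 8 of 9 genes did not overlap between the groups, against 53.8% of all genes. Scaling the libraries by median ratios moved the median over all genes to −0.00318, a shift of about 0.1 that makes every rise here a little smaller and every fall a little larger. The summed level went from 6464, 6477 and 5614 TPM to 5047, 4812 and 5114 TPM, most of it Acta2.

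The difference between the cell types was tested directly in a single fit of the 12 libraries. Acta2, Tagln, Myh11, Cnn1 and Smtn changed upward more in SMCs (5 of 9), Mylk more in PDGFR-β+ cells (1 of 9), and Lmod1, Actg2 and Srf did not pass. Over 13032 genes, 14.5% differed in the first direction and 18.5% in the second. All of these counts were the same in each of the 21 alternative fits of this difference. It rests on the same libraries as the 2 separate comparisons. The depth of knockdown, the source and the growth medium before transfection differed between the cell types as well.

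**Figure D2:**
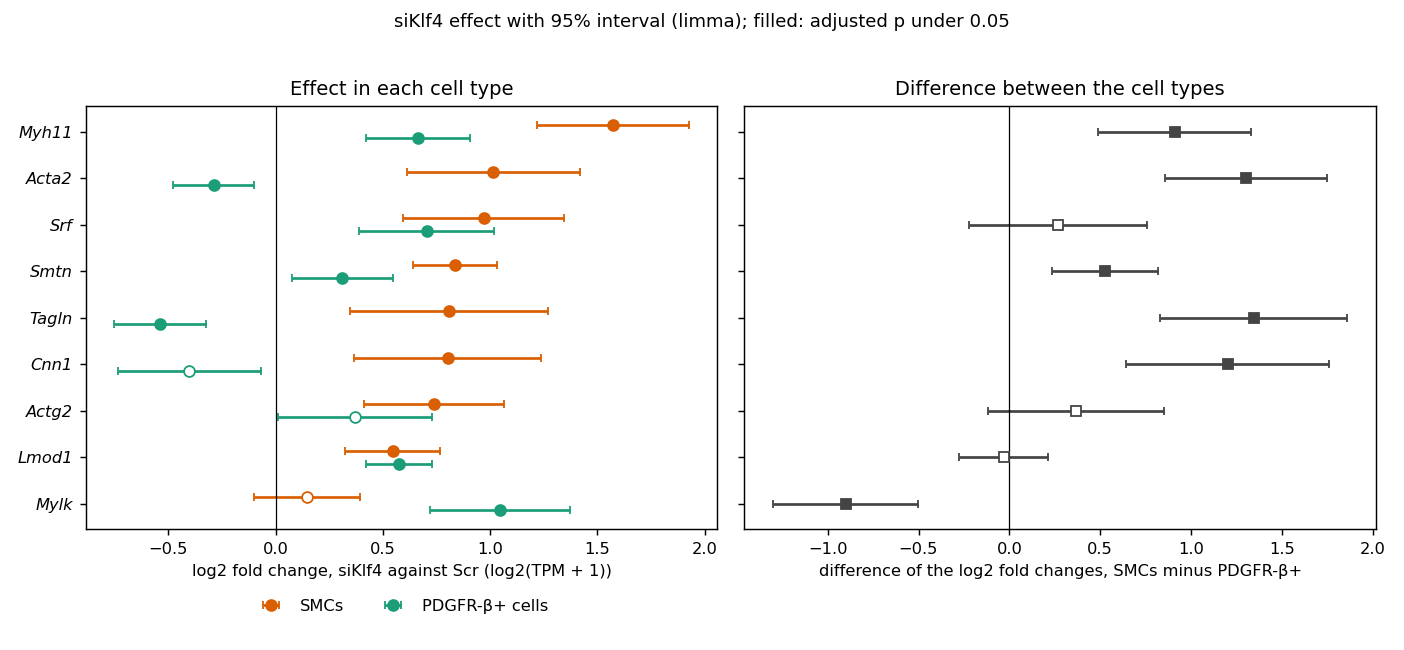
Left, log2 fold change of siKlf4 against Scr on the log2(TPM + 1) scale with its 95% interval, in SMCs (orange) and PDGFR-β+ cells (green), for the 9 genes tested. Right, the difference of the log2 fold changes, SMCs minus PDGFR-β+ cells, with its 95% interval. Filled symbols have an adjusted p under 0.05. Acta2 and Tagln lie on opposite sides of 0 in the cell types, while Lmod1 has nearly equal values of 0.55 and 0.58.

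Acta2, Tagln and Cnn1 had the 3 largest differences between the cell types among the 9 genes. Acta2 in SMCs was at 1031, 1522 and 1567 TPM under Scr and 3072, 2455 and 2691 TPM under siKlf4. Every siKlf4 library lay above every Scr library, and the mean was 1.99 times as high (log2 fold change 1.01, SE 0.17, adjusted p = 0.00644). The numbered libraries alone gave a smaller log2 fold change of 0.73 (adjusted p = 0.00422). In PDGFR-β+ cells Acta2 went from 4594, 4545 and 3969 TPM to 3657, 3454 and 3606 TPM. These groups did not overlap either, with siKlf4 lower at 81.8% of the mean (log2 fold change −0.29, SE 0.081, adjusted p = 0.0253). This fall was not secure: it missed the threshold when PDGFR-β+ Scr replicate 1 or 2, or siKlf4 replicate 2 or 3, was left out (adjusted p up to 0.0961) and after quantile normalization (log2 fold change −0.15, adjusted p = 0.394). The cell types differed by 1.30 (SE 0.20, adjusted p = 6.01e-04). Even after the rise, Acta2 in siKlf4 SMCs stayed under its level in every PDGFR-β+ library.

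Tagln followed the same course. In SMCs it stood at 301, 443 and 532 TPM under Scr and 778, 661 and 743 TPM under siKlf4, without overlap (1.71 times the mean, log2 fold change 0.81, SE 0.20, adjusted p = 0.0221). Leaving out SMC Scr replicate 2, siKlf4 replicate 3 or the unnumbered siKlf4 library lost the call for this rise, with an adjusted p of at most 0.0673, and the numbered libraries alone gave a log2 fold change of 0.53, adjusted p = 0.0296. PDGFR-β+ cells had 1535, 1623 and 1356 TPM under Scr and 988, 993 and 1126 TPM under siKlf4. All of the latter were lower, at 68.8% of the mean (log2 fold change −0.54, SE 0.092, adjusted p = 0.00316), and this fall passed with any library left out. The cell types differed by 1.35 (SE 0.24, adjusted p = 0.00125).

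Calponin 1 (Cnn1) binds thin filaments and damps the myosin ATPase. Its SMC levels were 34.04, 51.5 and 55.8 TPM under Scr and 72.9, 80.7 and 90.5 TPM under siKlf4, without overlap (log2 fold change 0.80, SE 0.18, adjusted p = 0.0186). That rise missed the threshold without siKlf4 replicate 2 (adjusted p = 0.0563) or replicate 3 (adjusted p = 0.0638). Its PDGFR-β+ levels were 120, 89.2 and 92.8 TPM under Scr and 85.0, 64.1 and 78.2 TPM under siKlf4. All siKlf4 values were below all Scr values, but the test did not pass (log2 fold change −0.40, 95% interval −0.74 to −0.067, adjusted p = 0.0584). It did pass after median-ratio scaling (log2 fold change −0.51, adjusted p = 0.0225). The cell types differed by 1.20 (SE 0.26, adjusted p = 0.00398).

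Actg2, the γ-actin of visceral smooth muscle, was scarcer than Acta2 in every library. SMC levels were 13.4, 13.9 and 15.1 TPM under Scr and 29.9, 21.1 and 22.4 TPM under siKlf4, a clean separation (1.73 times the mean, log2 fold change 0.74, SE 0.14, adjusted p = 0.00932). PDGFR-β+ levels were 28.7, 19.8 and 26.4 TPM and 33.4, 27.8 and 36.0 TPM, which overlapped because siKlf4 replicate 2 lay under Scr replicate 1. The log2 fold change was 0.37 (95% interval 0.011 to 0.73, adjusted p = 0.0914), and among the alternatives it passed only with a replicate block (adjusted p = 0.0224). The cell types did not differ beyond error (difference 0.37, 95% interval −0.12 to 0.85, adjusted p = 0.227). Thus the 2 smooth muscle actins moved together in SMCs but had values of opposite sign in PDGFR-β+ cells.

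Actins are alike in sequence, and whether reads were split between them was not tested. Between the Acta2 and Actg2 transcripts the longest identical run was 29 bases, and between Acta2 and Actg1 it was 56 bases. Both runs are shorter than the reads described in the study's methods. Skeletal actin Acta1 went from 2.50, 3.16 and 2.43 TPM to 7.49, 3.90 and 5.06 TPM in SMCs (log2 fold change 0.78, SE 0.21, adjusted p = 0.0340). In PDGFR-β+ cells it went from 17.1, 31.3 and 16.7 TPM to 7.04, 9.04 and 7.01 TPM (log2 fold change −1.34, SE 0.24, adjusted p = 0.00371). The cytoplasmic actins Actb and Actg1 rose in SMCs, by 0.89 (SE 0.12, adjusted p = 0.00341) and 0.86 (SE 0.13, adjusted p = 0.00404). In PDGFR-β+ cells they did not pass (0.043 and −0.17, adjusted p = 0.875 and 0.265). Cardiac actin Actc1 was under 1 TPM in every library. Of the 3 non-member actins tested, then, 3 rose in SMCs, where 15.6% of all genes tested did. Among these actins 1 fell and 0 rose in PDGFR-β+ cells, where 15.3% of all genes fell and 25.3% rose. A single fall among 3 genes is no result about the actins as a list.

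Myh11 rose in both cell types. It codes for smooth muscle myosin heavy chain of the thick filament and is regarded as the most specific marker of the lineage. Scr SMCs had 15.2, 16.0 and 15.7 TPM, close to one another, and siKlf4 SMCs had 61.9, 40.7 and 45.2 TPM. This was the largest rise of the 9 genes in SMCs, to 3.15 times the mean (log2 fold change 1.57, SE 0.15, adjusted p = 0.00119). PDGFR-β+ cells had 23.0, 20.5 and 18.8 TPM under Scr and 36.7, 31.2 and 32.4 TPM under siKlf4, also without overlap (1.61 times the mean, log2 fold change 0.66, SE 0.10, adjusted p = 0.00216). The rise was greater in SMCs by 0.91 (SE 0.19, adjusted p = 0.00385). Since Myh11 rose where Acta2 fell, the ratio of Acta2 to Myh11 in PDGFR-β+ cells went from 200, 222 and 211 with Scr to 99.5, 111 and 111 with siKlf4. In SMCs both genes rose and the ratio went from 67.7, 95.2 and 99.7 to 49.7, 60.3 and 59.6.

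Mylk was the 1 gene whose response was larger in PDGFR-β+ cells. The kinase was at 10.98, 8.89 and 11.1 TPM there with Scr and at 26.3, 19.0 and 22.2 TPM under siKlf4, without overlap (2.18 times the mean, log2 fold change 1.05, SE 0.14, adjusted p = 0.00108). In SMCs, which began far higher, it was at 57.4, 51.5 and 51.5 TPM under Scr and at 68.3, 54.0 and 56.3 TPM under siKlf4. These overlapped (log2 fold change 0.15, 95% interval −0.10 to 0.39, adjusted p = 0.328). The difference, SMCs minus PDGFR-β+ cells, was −0.90 (SE 0.18, adjusted p = 0.00308). Despite its rise, Mylk in siKlf4 PDGFR-β+ cells remained under every SMC library. Mylk spans 8 annotated transcripts, of which some encode a long kinase and some only the C-terminal telokin, and the table gives 1 value for all of them. It also overlaps 3 genes on the opposite strand.

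Lmod1 and Smtn code for structural proteins of differentiated smooth muscle. Lmod1, leiomodin, nucleates actin filaments. Its levels were 50.4, 50.5 and 46.4 TPM under Scr and 80.7, 65.2 and 71.0 TPM under siKlf4 in SMCs, without overlap (log2 fold change 0.55, SE 0.094, adjusted p = 0.00691). PDGFR-β+ levels were 57.8, 58.2 and 54.9 TPM and 82.1, 86.7 and 87.4 TPM, again without overlap (log2 fold change 0.58, SE 0.066, adjusted p = 5.59e-04). The rises were close in size, with a difference of −0.030 (95% interval −0.28 to 0.22, adjusted p = 0.861). Smoothelin (Smtn) went from 60.2, 53.4 and 64.8 TPM to 107, 106 and 107 TPM in SMCs (1.79 times the mean, log2 fold change 0.84, SE 0.083, adjusted p = 0.00130). In PDGFR-β+ cells it went from 59.8, 70.7 and 56.3 TPM to 81.4, 78.4 and 72.0 TPM, with a narrow gap between the groups (log2 fold change 0.31, SE 0.10, adjusted p = 0.0415). This smaller rise missed the threshold after median-ratio scaling (log2 fold change 0.20, adjusted p = 0.114) and when any library except Scr replicate 2 was left out (adjusted p up to 0.115). The Smtn rise was greater in SMCs by 0.52 (SE 0.13, adjusted p = 0.0107).

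Srf, the CArG-binding factor whose own promoter holds the pair of exact boxes printed above, rose in both. SMC levels were 17.1, 25.7 and 25.1 TPM under Scr and 40.8, 45.6 and 47.5 TPM under siKlf4 (1.97 times the mean, log2 fold change 0.97, SE 0.16, adjusted p = 0.00591). PDGFR-β+ levels were 34.6, 41.2 and 28.0 TPM and 56.3, 58.7 and 53.9 TPM (1.63 times the mean, log2 fold change 0.70, SE 0.13, adjusted p = 0.00516). Neither pair of groups overlapped. The difference between the rises was 0.27 (95% interval −0.22 to 0.76, adjusted p = 0.385). Srf overlaps Mir6976 on its own strand and Gm26904 on the other. Per the study's methods the libraries were strand-specific and made from poly-A RNA. Whether reads of these genes entered the Srf value was not tested.

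Myocd, by contrast, was barely detected. It was at 0.213, 0.0311 and 0.186 TPM in Scr SMCs and at 0.192, 0.0543 and 0.115 TPM in siKlf4 SMCs, which overlapped. PDGFR-β+ cells had 0.0342 and 0.0457 TPM in Scr replicates 1 and 2 and were listed at 0 in replicate 3, and had 0.129, 0.0989 and 0.0544 TPM under siKlf4. The siKlf4 values were all above the Scr values, but at levels where TPM gives no read depth. Without the filter on low values, Myocd did not pass in SMCs (log2 fold change −0.027, adjusted p = 0.860) or in PDGFR-β+ cells (0.092, adjusted p = 0.211). At levels this low, the overlap in SMCs does not show whether Myocd changed, and its part in the rises was not tested.

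Other genes of the contractile apparatus (28 listed) were described in the same way. Of 25 tested in SMCs, 12 rose and 1 fell, against 15.6% higher and 12.9% lower among all genes. Myl9, the regulatory light chain (log2 fold change 1.49, adjusted p = 0.0192), α-tropomyosin Tpm1 (1.23, adjusted p = 0.00117) and the LIM protein Csrp1 (0.97, adjusted p = 0.00101) rose most. Myl9 was at 128, 327 and 324 TPM under Scr and 598, 675 and 749 TPM under siKlf4, so its size leans on the unnumbered Scr library. Pgm5, a phosphoglucomutase relative found at muscle adhesions, fell (−1.13, adjusted p = 0.0218). In PDGFR-β+ cells 8 of 24 rose and 3 fell, near the 25.3% higher and 15.3% lower among all genes. Those counts were 5 and 1 without siKlf4 replicate 3, and 1 fell without Scr replicate 1 or siKlf4 replicate 2. Pgm5 was not called without SMC siKlf4 replicate 2 or 3. The myosin phosphatase subunits Ppp1r12a (0.85, adjusted p = 8.84e-05) and Ppp1r12b (0.64, adjusted p = 7.18e-04) and the actin-associated Synpo2 (0.66, adjusted p = 0.00219) rose most. Des (−0.82, adjusted p = 0.0165), the essential light chain Myl6 (−0.33, adjusted p = 0.0133) and β-tropomyosin Tpm2 (−0.27, adjusted p = 0.0149) fell. The median was 0.36 in SMCs and 0.12 in PDGFR-β+ cells.

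Immediate early and cytoskeletal SRF targets form a further list. Of 15 tested, 10 rose and 0 fell in SMCs (median 0.71), and 0 rose and 3 fell in PDGFR-β+ cells (median −0.13). The shares among all genes were 15.6% higher and 12.9% lower in SMCs, and 25.3% higher and 15.3% lower in PDGFR-β+ cells. At an unadjusted limma p under 0.05, 0 were lower in SMCs and 1 was higher in PDGFR-β+ cells. Without PDGFR-β+ Scr replicate 3 the count lower there was 5, and with median-ratio scaling it was 6. Without Scr replicate 2, 1 was higher there, and without the unnumbered Scr library 1 was lower in SMCs. The difference between cell types passed for 10 of 15, all in the direction of SMCs, against 14.5% of all genes. Egr1, an early growth response factor, went from 12.4, 18.3 and 18.9 TPM to 27.8, 36.0 and 33.3 TPM in SMCs (0.94, adjusted p = 0.00863). In PDGFR-β+ cells it went from 28.5, 30.4 and 28.2 TPM to 16.9, 18.6 and 14.5 TPM (−0.77, adjusted p = 0.00111). Ctgf, a matricellular protein, rose in SMCs (1.26, adjusted p = 0.0116) and fell in PDGFR-β+ cells (−0.27, adjusted p = 0.0421). Cyr61, its relative, rose in SMCs (0.83, adjusted p = 0.00580) and fell in PDGFR-β+ cells (−0.34, adjusted p = 0.00926). Not all immediate early genes rose in SMCs. There Fos (means 28.8 TPM with Scr and 19.1 TPM under siKlf4), Fosb (2.79 and 2.17 TPM) and Junb (121 and 126 TPM) overlapped between the groups. Egr2 (1.63 and 2.21 TPM) and Mcl1 (130 and 126 TPM) overlapped too, whereas Ier2 (16.7 and 31.3 TPM) was higher without overlap.

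**Figure D3:**
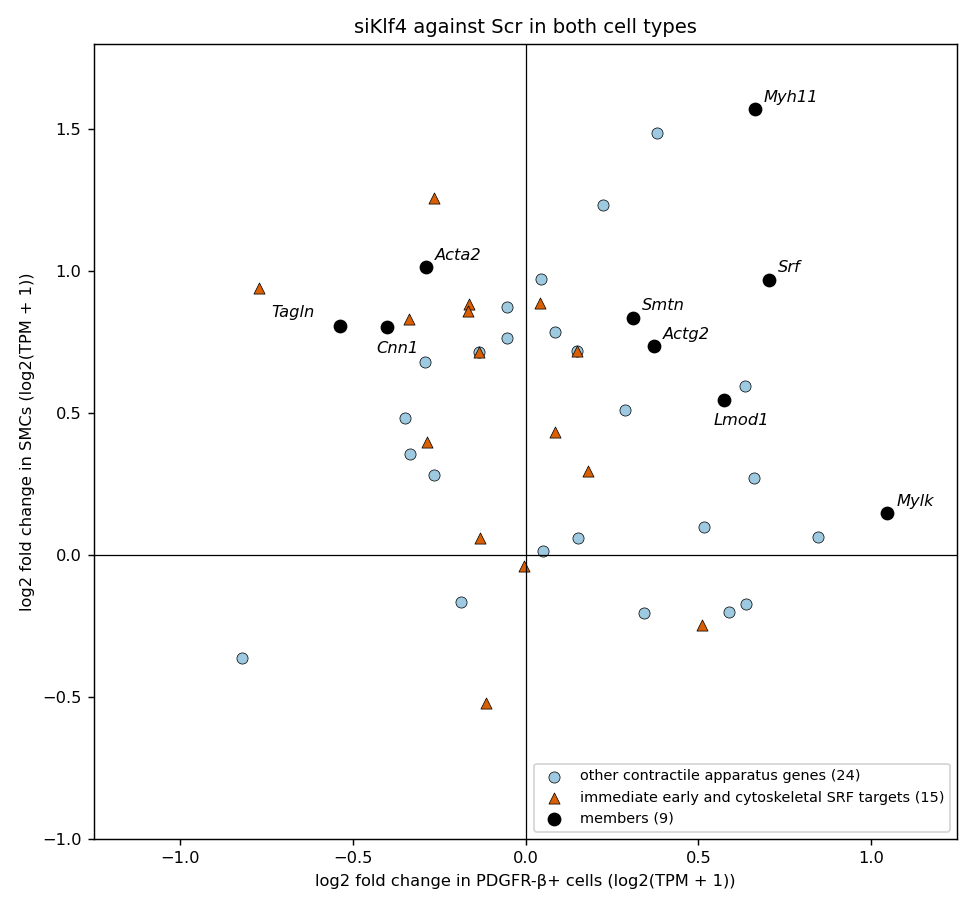
Log2 fold change of siKlf4 against Scr on the log2(TPM + 1) scale, in PDGFR-β+ cells (horizontal axis) and SMCs (vertical axis), for 9 of the 10 contractile genes (black), 24 other contractile apparatus genes (blue circles) and 15 immediate early and cytoskeletal SRF targets (orange triangles). Vcl and Flna belong to both wider lists and are drawn in both. Acta2, Tagln and Cnn1 lie in the upper left with most SRF targets, Myh11, Srf, Smtn, Actg2 and Lmod1 in the upper right, and Mylk far right near 0 on the vertical axis.

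SRF cofactors and other regulators of smooth muscle genes gave calls in both directions. Of 19 tested in SMCs, 3 rose and 3 fell, and of 21 tested in PDGFR-β+ cells, 6 rose and 3 fell. These shares lay near those among all genes, 15.6% higher and 12.9% lower in SMCs and 25.3% higher and 15.3% lower in PDGFR-β+ cells, so the counts are no result about the list. Without PDGFR-β+ siKlf4 replicate 3, 1 fell there. The orphan receptor Nr4a1 rose in both (1.15 in SMCs, adjusted p = 0.00385, and 0.88 in PDGFR-β+ cells, adjusted p = 0.00152). In SMCs the LIM protein Fhl2 (0.86, adjusted p = 0.00158) and Tead1 (0.29, adjusted p = 0.0356) also rose. Tcf21, a fibroblast lineage factor (−1.28, adjusted p = 0.0124), Klf15 (−0.77, adjusted p = 0.00930) and Foxo4 (−0.41, adjusted p = 0.0126) fell. Mkl1, the actin-sensing SRF coactivator, was at 63.3, 65.3 and 57.6 TPM under Scr and 123, 96.3 and 110 TPM under siKlf4 in PDGFR-β+ cells (0.81, adjusted p = 8.64e-04). In SMCs Mkl1 gave 0.15 (adjusted p = 0.112), and the difference between cell types was −0.66 (SE 0.12, adjusted p = 0.00161). Klf5 rose in PDGFR-β+ cells (0.70, adjusted p = 0.00573), where the ETS cofactors Elk3 (−0.59, adjusted p = 0.00202) and Elk1 (−0.31, adjusted p = 0.0190) and Foxo4 (−0.43, adjusted p = 0.0143) fell.

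Genes of the synthetic smooth muscle state, the matrix-making state that opposes the contractile one, moved in both directions. In SMCs 3 of 13 rose and 5 fell, against 15.6% higher and 12.9% lower among all genes. Without the unnumbered Scr library, Scr replicate 2, siKlf4 replicate 2 or siKlf4 replicate 3, 3 fell, and without the filter on low values 2 fell. S100a4 (−1.06, adjusted p = 0.00559), the short-chain collagen Col8a1 (−0.74, adjusted p = 0.0109) and the proteoglycan Lum (−0.49, adjusted p = 0.0289) fell most. Thbs1 (0.86, adjusted p = 9.68e-04), Tpm4 (0.43, adjusted p = 0.00582) and Spp1 (0.40, adjusted p = 0.00579) rose. In PDGFR-β+ cells 2 of 12 rose and 6 fell, against 25.3% higher and 15.3% lower, and 1 rose without Scr replicate 1 or 3 or siKlf4 replicate 2 or 3. The falls were led by the matrix Gla protein Mgp (−1.92, adjusted p = 5.14e-04), S100a4 (−1.67, adjusted p = 8.81e-06) and Thbs1 (−1.26, adjusted p = 3.11e-04). Non-muscle myosin Myh10 (0.58, adjusted p = 0.00554) and Spp1 (0.28, adjusted p = 0.0257) rose there.

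Likeness to Acta2 was described by Pearson's r over the 12 libraries, after centring log2 values on each cell type's mean. Tagln (0.94) and Cnn1 (0.90) were closest among the 10 genes, followed by Myh11 (0.75), Smtn (0.72), Actg2 (0.66), Srf (0.63) and Lmod1 (0.43), and Mylk had −0.12. The closest other genes were Bok (0.980), Myh9 (0.979), Lrrc59 (0.973), Tubb6 (0.964) and Ctgf (0.963). The 12 points share their library's scaling and the knockdown itself, so the values describe a shared pattern only.

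**Figure D4:**
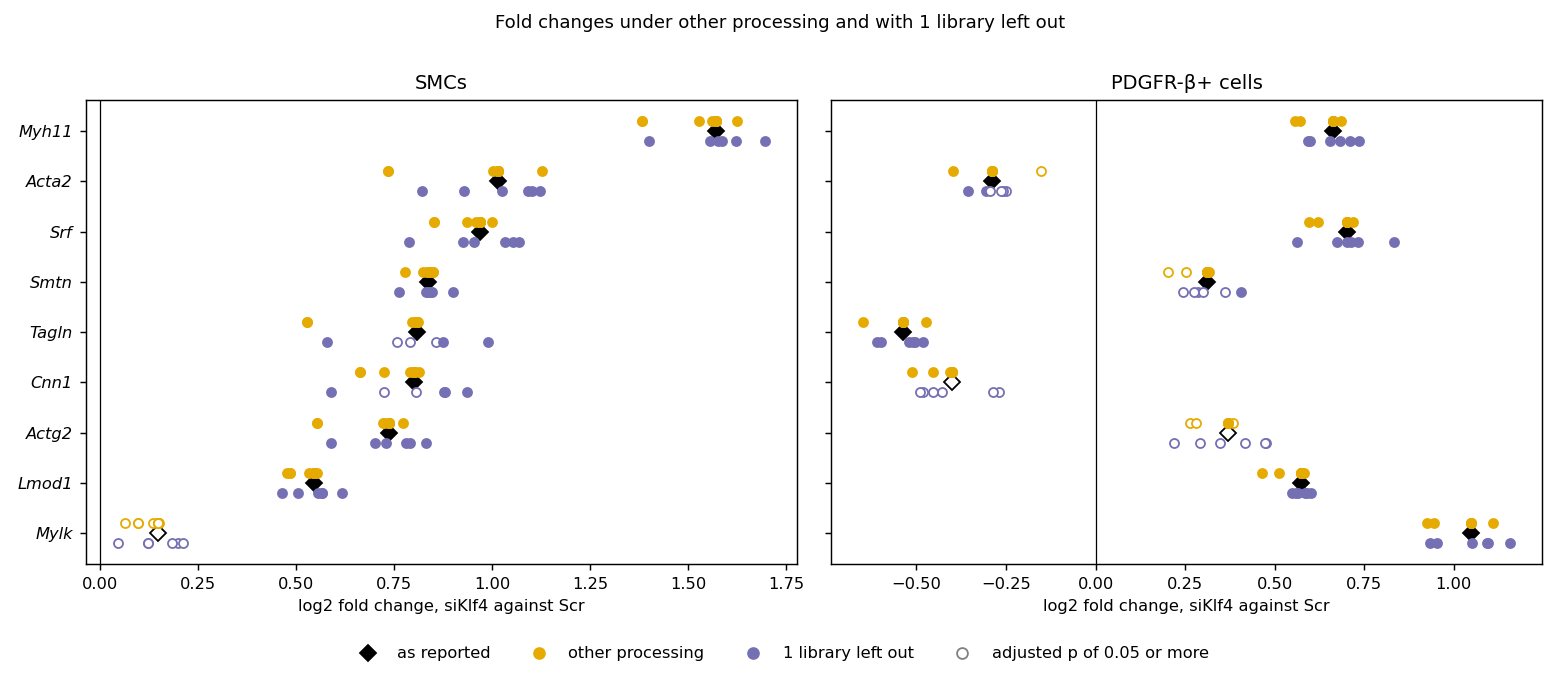
Log2 fold change of siKlf4 against Scr for the 9 genes in SMCs (left) and PDGFR-β+ cells (right), as reported (black diamonds), under other processing (yellow) and with 1 library left out (purple). Open symbols have an adjusted p of 0.05 or more. No gene crosses 0 in either cell type, but Tagln and Cnn1 in SMCs and Acta2 and Smtn in PDGFR-β+ cells have open symbols among their alternatives.

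By position in GENCODE M21 (GRCm38), the 10 genes are scattered. Acta2 lies at chr19:34241090-34255590, Myh11 at chr16:14194535-14291372, Mylk at chr16:34745210-35002420, Tagln at chr9:45929619-45936058 and Cnn1 at chr9:22099216-22109630. Lmod1 lies at chr1:135324807-135368065, Smtn at chr11:3517523-3540612, Myocd at chr11:65176561-65269989, Actg2 at chr6:83512905-83536265 and Srf at chr17:46548329-46556175. All are protein-coding. For Acta2, Myh11, Mylk and Srf the identifier in the tables has another version than in this release, so their boundaries may differ slightly from those used for counting. Tagln overlaps Pcsk7 and Gm48529, Smtn overlaps Gm11946 and Gm11947, and Lmod1 overlaps Gm22796, each on the opposite strand.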

How the data were processed

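Transcript levels were measured by poly-A RNA-seq of 12 libraries. The deposited values are TPM, which per the labels and the methods the authors made with HISAT2 (mm10), GENCODE mouse annotation (release not given in the sources used here) and StringTie. Each library sums to 1e+06, so depth is unknown and no counting interval is given. The authors used DESeq2 for their own tests. The tables, 1 for each cell type, were joined on gene identifier, and 0 columns were left unmapped. TPM is set within each library, so both tables share a unit.

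Values were tested with limma 3.58.1 in R 4.3.3 on log2(TPM + 1), with a mean-variance trend and moderated variances, over genes averaging 1 TPM or more. Each cell type had its own fit. The difference between cell types and the baseline used all 12 libraries and genes that averaged 1 TPM or more in each cell type. A fold change on this scale understates the change of low genes. The adjusted p (Benjamini-Hochberg) covers all genes tested. The steps were tested on simulated data. The libraries are separate samples of 3 experiments per the methods. Where cultures were shared, p-values measure only the spread between these samples. No 2 columns were identical.

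The 10 genes and all wider lists were chosen with earlier results of these data known. The result of 1 list is not reported here. Named from each list were up to 3 of the largest rises and falls past the threshold in each cell type, and in addition Klf4, the actin paralogues and the 5 genes most like Acta2. Alternatives were a pseudocount of 0.1 TPM, no filter, a minimum of 5 TPM, median-ratio scaling, quantile normalization, no trend, a single fit, a replicate block, the numbered SMC libraries only, a term for numbering, the Scr libraries only, and each library left out, with a block pairing the unnumbered SMC libraries added after seeing the data.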

Additional observations from a re-analysis of the deposited data

Results flagged for a closer look

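The siKlf4 effect differed between SMCs and PDGFR-β+ cells for 6 of the 9 genes tested, by limma's test of the difference itself (SMCs minus PDGFR-β+ cells, log2 scale, adjusted over all genes). Among all 13032 genes, 14.5% differed upward in SMCs and 18.5% in the other direction. The value was 1.30 for Acta2 (adjusted p = 6.01e-04), 1.35 for Tagln (adjusted p = 0.00125), 0.91 for Myh11 (adjusted p = 0.00385), 1.20 for Cnn1 (adjusted p = 0.00398), 0.52 for Smtn (adjusted p = 0.0107) and −0.90 for Mylk (adjusted p = 0.00308). Over all alternatives and libraries left out, the difference ranged from 1.02 to 1.41 for Acta2, and from −1.01 to −0.79 for Mylk.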

How the results depend on the processing

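Of 639 recomputed values for single genes, 591 kept their direction and their side of the threshold, 40 no longer passed, 4 newly passed and 4 changed sign. The sign changed only where the reported value had not passed: the difference between cell types for Lmod1 (0.049 with median-ratio scaling, 0.041 without SMC siKlf4 replicate 2, and −0.11 to 0.041 over all libraries left out) and the baseline difference for Smtn (0.030 without PDGFR-β+ Scr replicate 2, 0.011 without SMC Scr replicate 2, and −0.13 to 0.030 over all libraries left out). The count of genes lower in PDGFR-β+ cells was 1 in place of 2 without the filter and in the single fit of both cell types, and ranged from 1 to 2 with a library left out (1 without Scr replicate 1, Scr replicate 2, siKlf4 replicate 2 or siKlf4 replicate 3), Acta2 being the gene lost. The other member counts stayed within 1.5 times: 6 to 8 higher in SMCs, 4 to 6 higher in PDGFR-β+ cells and 5 to 7 lower at baseline. The count of 10 SRF targets higher in SMCs ranged from 8 to 10, and that of 3 lower in PDGFR-β+ cells from 2 to 6. Over all genes averaging 1 TPM or more, same-numbered libraries did not deviate together in PDGFR-β+ cells (r = 0.073, −0.016 and 0.0043). Single genes can differ from this. In SMCs the deviations gave r = 0.19 and 0.20 for the pairs numbered 2 and 3, 0.36 for the libraries without a number and −0.22 to 0.050 for the other pairings, so each correlated best with its own, a hint from the data since no label pairs the unnumbered libraries. With a replicate block, Cnn1 (adjusted p = 0.0130) and Actg2 (adjusted p = 0.0224) newly passed in PDGFR-β+ cells, for 6 genes higher and 3 lower, and a block on SMC replicates 2 and 3 gave 8 higher genes. A replicate block with the unnumbered SMC libraries as a pair of their own, chosen after seeing the data, changed no call of the 9 genes in SMCs (8 higher, 0 lower, adjusted p = 0.0292 for Tagln and 0.00693 for Cnn1) or between cell types (5 and 1). The cause of these changes was not tested. Depth is unknown from TPM, and Myocd, under the filter, has no test.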
